A study of Mus musculus with 42 samples.

Results

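The expression of 55 genes of mitosis and the G2/M phase was followed through mouse colon stromal cells, goblet cells and colonic organoids. They were taken as a named list, 55 of the 19232 gene names found in any of the 12 expression tables of the series. All 55 had a row in each of the 12 tables and there reached the mean normalized count of 10 that a gene needed to be tested. By role they are 11 cyclins, CDK1 and regulators of CDK1, 3 mitotic kinases, 3 partners of the anaphase-promoting complex or its target protease, 4 spindle checkpoint genes, 3 subunits of the chromosomal passenger complex, 6 genes of the centromere and kinetochore, 6 kinesins, 9 spindle microtubule proteins, 6 genes of chromosome structure and 4 genes of cytokinesis. In stromal cells that had lost Smad4 most of these genes were higher than in control stromal cells, with a median rise of 3.84-fold proximally and 3.17-fold distally. In organoids kept with IL-1 for 72 h the median member was 5.69-fold lower than in untreated organoids, while at 12 h it differed by -0.02 on the log2 scale. Reads of 2 of the 3 untreated 72 h libraries were also deposited as 12 h controls, which limits that contrast of times.

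A dividing cell enters mitosis when cyclin B and the kinase Cdk1 become active together, and leaves it when the anaphase-promoting complex marks cyclin B and the guardians of sister chromatid cohesion for destruction. Most of these genes are transcribed in a wave late in the cell cycle, under the MuvB complex with B-Myb and Foxm1, so that their RNA is abundant in dividing cells and scarce in resting ones. In the colon the dividing epithelial cells lie low in the crypts, and most stromal fibroblasts divide rarely.

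Promoters of these late genes are known for CCAAT boxes and for the CHR element, which reads TTTGAA or TTCGAA. RefSeq promoter windows of 300 bases, from 250 before to 50 after the transcription start (GRCm38.p6), were found for 47 member genes, 51 windows in all. CCAAT, searched on both strands, occurred in 82.4% of the member windows and in 37.4% of the 32851 windows of all genes. TTTGAA occurred in 70.6% against 17.9%, TTCGAA in 11.8% against 1.56%, and CCAAT together with either of these in 70.6% against 7.52%. In all, 33 member genes held both kinds in 1 window. These are counts of letters and not of bound sites, and no test was made of them. Among the members most changed in stromal cells, the first 4 by change in Smad4 knockout cells of the proximal colon whose windows hold both kinds are printed 5′ to 3′ on the gene's own strand. Capitals mark CCAAT and TTTGAA on either strand, so that a match on the other strand reads as its reverse complement. The windows lie at chr10:69352863-69353162 (minus strand) for Cdk1, chr6:124829926-124830225 (plus) for Cdca3, chr14:46760291-46760590 (plus) for Cdkn3 and chr11:40733388-40733687 (minus) for Hmmr.
Cdk1: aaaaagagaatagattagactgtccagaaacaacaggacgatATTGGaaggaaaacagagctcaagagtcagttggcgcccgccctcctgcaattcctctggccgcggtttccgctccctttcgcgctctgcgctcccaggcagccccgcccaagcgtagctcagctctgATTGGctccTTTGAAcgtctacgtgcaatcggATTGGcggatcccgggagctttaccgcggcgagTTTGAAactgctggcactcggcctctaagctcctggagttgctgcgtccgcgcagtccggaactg
Cdca3: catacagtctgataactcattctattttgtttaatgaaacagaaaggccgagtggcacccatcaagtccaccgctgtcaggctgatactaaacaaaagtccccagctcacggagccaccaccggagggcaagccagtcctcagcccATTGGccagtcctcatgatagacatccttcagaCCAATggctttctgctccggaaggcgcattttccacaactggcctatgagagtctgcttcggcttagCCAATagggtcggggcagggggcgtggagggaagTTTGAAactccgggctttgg
Cdkn3: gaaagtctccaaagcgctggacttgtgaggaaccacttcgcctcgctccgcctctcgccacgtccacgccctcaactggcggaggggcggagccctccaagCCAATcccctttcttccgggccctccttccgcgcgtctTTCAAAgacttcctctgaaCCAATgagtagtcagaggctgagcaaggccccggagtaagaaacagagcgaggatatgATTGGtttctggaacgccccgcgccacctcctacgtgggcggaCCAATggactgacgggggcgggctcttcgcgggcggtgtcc
Hmmr: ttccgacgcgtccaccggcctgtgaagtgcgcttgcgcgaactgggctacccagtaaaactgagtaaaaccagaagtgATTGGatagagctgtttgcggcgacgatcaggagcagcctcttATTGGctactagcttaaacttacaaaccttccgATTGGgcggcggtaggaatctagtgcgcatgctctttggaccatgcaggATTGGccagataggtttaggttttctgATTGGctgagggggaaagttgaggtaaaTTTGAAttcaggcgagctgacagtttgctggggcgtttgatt
The Cdk1 window held 3 CCAAT and 2 TTTGAA, that of Cdca3 3 and 1, that of Cdkn3 4 and 1, and that of Hmmr 5 and 1. The window of Kif2c, another of the most changed members, held TTTGAA and no CCAAT. It lies at chr4:117178723-117179022 (minus), inside the GENCODE gene, which on that strand begins at 117182639. The absence of CCAAT thus holds for that RefSeq start alone.

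The series asked what loss of BMP signalling in Gli1+ stromal cells, the mesenchymal cells under the colonic epithelium, does to the stroma and to the goblet cells above it. Smad4 is the shared intracellular effector of BMP and TGF-β signalling, and Alk3, whose gene is Bmpr1a, is a BMP receptor. All mice carried Gli1-CreERT2, were of both sexes and 2 to 4 months old, received tamoxifen on 5 days in a row, and were sampled at day 30. Stromal cells were sorted by a Cre-dependent tdTomato reporter from control (GWTT), Smad4 floxed (GS4T) and Alk3 floxed (GA3T) mice, and Muc2-mCherry goblet cells from the corresponding GWTM2, GS4M2 and GA3M2 mice, with 2 libraries for each genotype from either colon segment. The Cre driver acts in Gli1+ cells, so goblet cells are the untargeted neighbours of the cells that lost the gene. Wild-type colonic organoids, epithelium grown without stroma in a medium that the labels give as holding EGF, Wnt3a, R-spondin1, the GSK3 inhibitor CHIR and the BMP antagonist Noggin, were left untreated or given 10 nM IL-1 (IL-1α and IL-1β) or 10 nM IL-17A for 12 h or 72 h, with 3 libraries per group. The labels do not say whether libraries of a group came from separate mice or cultures, so p-values measure the spread between these libraries.

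The 42 libraries held 14222902 to 23686940 reads on genes. Counts below are the deposited normalized counts, reads divided by a size factor of the library, unless another unit is named. Not all libraries were distinct. Untreated 72 h replicate 1 held the reads of untreated 12 h replicate 2, and untreated 72 h replicate 4 those of untreated 12 h replicate 4, with at least 99.98% of gene counts identical. A chi-square test of untreated 72 h replicates 2 and 4 gave 3.30 per degree of freedom, against 18.05 for the nearest pair within a group of stromal libraries, so those libraries were also very close to each other. Replicates 3 and 4 were as close at 12 h, at 3.03 with IL-1 and 3.32 with IL-17A, where the other pairs of those groups gave 61.9 to 69.6. Only 40 of the 42 libraries were therefore distinct, and 2 of the 3 untreated libraries at 72 h were also deposited as 12 h controls. The control libraries of each segment were shared between the Smad4 and the Alk3 comparisons, and those of each time between IL-1 and IL-17A, so results within those pairs are not independent of each other.

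The labels give intestinal epithelium as the tissue of every library, stromal cells included. The summed level of 10 fibroblast genes, led by the collagen gene Col3a1, was 42859 to 58856 CPM, reads scaled to a common library total, in the 12 stromal libraries and at most 62.1 CPM in goblet and organoid libraries. The summed level of 12 epithelial genes was 12663 to 21935 CPM in goblet and organoid libraries. Stromal and epithelial libraries were thus apart, but epithelial RNA in the stromal libraries was not nil and is given beside the results. These sums do not tell goblet cells from other epithelium.

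The deleted genes were measured first. Normalized Smad4 counts were 1604 and 1673 in control and 705 and 835 in GS4T stromal libraries of the proximal colon. They were 1781 and 1703 against 680 and 1171 in the distal colon. Smad4 fell by 1.09 ± 0.12 (SE) on the log2 scale proximally (limma, Benjamini-Hochberg adjusted p = 0.0101) and by 0.96 ± 0.25 distally (adjusted p = 0.0424), with no overlap between the groups. Bmpr1a counts were 2960 and 3220 in control and 2233 and 1842 in GA3T libraries proximally, and 3359 and 3485 against 2203 and 2043 distally. The log2 change was -0.61 ± 0.14 (adjusted p = 0.12) and -0.69 ± 0.11 (adjusted p = 0.101), lower in all 4 GA3T libraries but short of the threshold. How the floxed exons lie in these counts is not given in the sources used here.

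Summed over the 55 genes, the level of mitotic RNA set both stromal knockouts apart from control in either segment, while the knockouts overlapped with each other. The sum was 326 and 382 CPM in proximal control libraries, 704 and 786 in GS4T and 560 and 733 in GA3T libraries. In the distal colon it was 335 and 487 CPM in control, 1242 and 692 in GS4T and 813 and 1033 in GA3T libraries. The lowest knockout library lay above the highest control library in each segment. In goblet cells the sum was 1852 to 4638 CPM, and in untreated organoids 4600 to 6486 CPM. In bulk RNA fewer dividing cells and less RNA per dividing cell cannot be told apart.

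**Figure D1:**
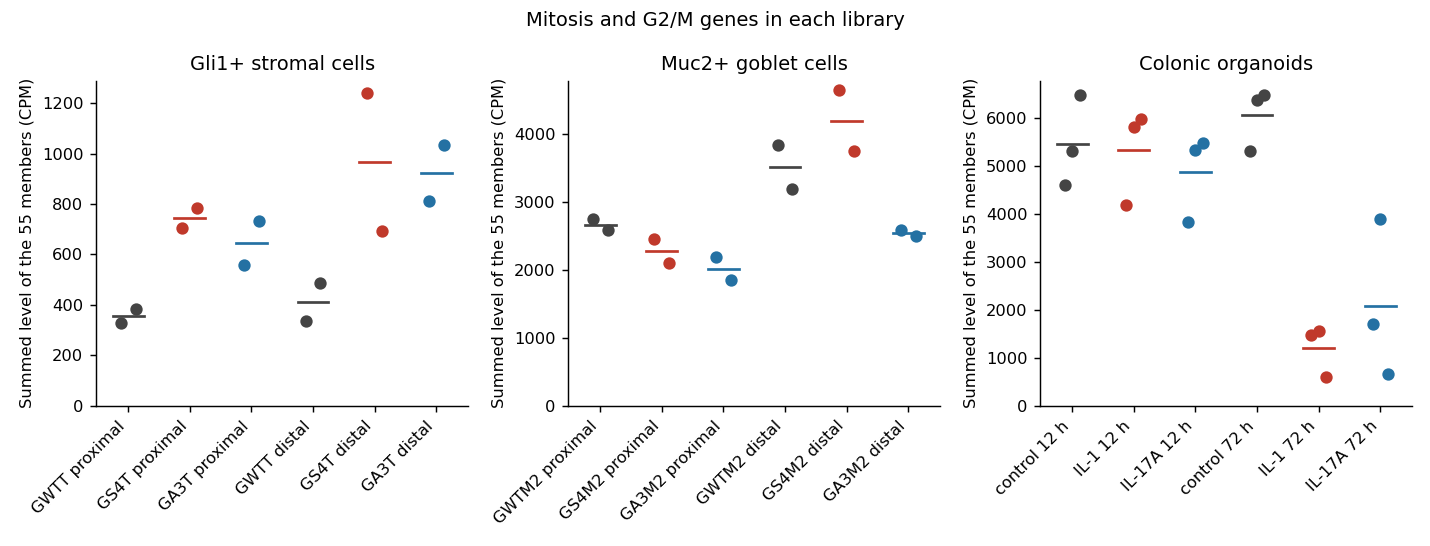
Summed level of the 55 mitosis and G2/M genes in each library, in CPM, with a separate vertical axis from 0 for stromal cells, goblet cells and organoids. Each point is a library and each bar the mean of a group. All 8 knockout stromal libraries lie above the control libraries of their segment, and the 3 organoid libraries with IL-1 for 72 h lie between 606 and 1558 CPM against 5313 to 6486 CPM without treatment.

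Levels differed widely between members. Per length, as reads per exon length and library total (RPKM), the highest members in proximal control stromal cells were Hjurp, the chaperone of the centromeric histone, at a mean of 11.8 RPKM, and Cks1b, which binds cyclin-dependent kinases, at 9.65 RPKM. Their ranges over the pair of libraries, 9.57 to 13.99 and 8.07 to 11.2 RPKM, overlapped. Cdc25b, a phosphatase that activates Cdk1, and the condensin subunit Smc4 followed at 6.12 and 5.63 RPKM, while Kif2c, Cdkn3, Ccnf and Cdc25c were near 0.1 RPKM. In goblet cells the order was another: Plk1, the polo-like kinase of mitotic entry, led at 157 RPKM proximally and 156 distally, ahead of Cks2 at 46.2 and 56.1 RPKM. In untreated organoids at 12 h Cks2 and Plk1 had 93.0 and 92.8 RPKM and did not differ beyond their spread, followed by Cdc20 at 69.9 and Mki67 at 65.1 RPKM. An exon of Plk1 overlaps Gm44985 on the other strand, and 17 members in all share exon bases with another gene. Use of strand in the counting is not given in the sources used here, so for these 17 the level is uncertain.

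Every member but Cdc25b was higher in proximal GS4T stromal cells than in control stromal cells, and 32 of 55 were called, all of them higher. A call needed a Benjamini-Hochberg adjusted p under 0.05 over all genes tested in limma and a change of at least 2-fold on the scale of log2(value + 1). By that rule 5.25% of all genes tested were called higher. The groups did not overlap, with both knockout libraries higher, for 51 members, against 34% of all genes. Of the members, 11 are shown by the study as proliferation genes of these same libraries, which makes them no independent evidence of direction. Of those 11, 8 were called, and of the other 44, 24 were called, with medians of 2.04 and 1.87 on the log2 scale. The other 44 were measured in the same libraries and chosen with earlier results of these data known, so they are no independent evidence either.

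Among the genes of mitotic entry Cdk1 had the largest change of all 55. Cdk1 counts were 18.6 and 26.6 in control and 187 and 201 in proximal GS4T libraries, a rise of 3.07 ± 0.34 on the log2 scale (limma, adjusted p = 0.00984). Ccnb1, its cyclin B partner, had 25.8 and 24.6 against 156 and 180, a rise of 2.69 ± 0.31 (adjusted p = 0.0108). Cdkn3, a phosphatase that acts on cyclin-dependent kinases, was scarce, at 5.17 and 3.07 against 32.3 and 38.9. For each of these genes the lower knockout library was several times the higher control library. Of the 11 genes of this role 6 were called, the others being Cdca3, Ccna2 and Ccnb2. Cdc25b ran the other way, with 345 and 418 in control and 228 and 265 in knockout libraries (-0.63 ± 0.18, adjusted p = 0.0795), and Cks1b, at 214 and 151 against 180 and 233, overlapped between the groups.

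All 3 mitotic kinases were called in the same comparison. Plk1 had 24.8 and 63.5 counts in control and 172 and 333 in knockout libraries, a rise of 2.56 ± 0.57 (adjusted p = 0.0432). Aurka and Nek2, kinases of the centrosome, rose by 2.32 and 2.05. All 3 subunits of the chromosomal passenger complex, which corrects faulty spindle attachments, were called as well: Aurkb, its kinase, had 15.5 and 19.5 against 94.1 and 153, and Birc5, known as survivin, 20.7 and 18.4 against 102 and 118. The rises were 2.72 ± 0.43 (adjusted p = 0.0195) and 2.43 ± 0.36 (adjusted p = 0.0172).

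At the metaphase to anaphase step Cdc20, the activator of the anaphase-promoting complex, and Ube2c, its ubiquitin-conjugating enzyme, were called. Ube2c had 44.5 and 32.8 counts in control and 141 and 182 in knockout libraries, a rise of 2.04 ± 0.33 (adjusted p = 0.0214). Of the 4 spindle checkpoint genes only Bub1 was called, with 8.27 and 12.3 against 83.9 and 68.8. Bub1b and Mad2l1 showed smaller differences of 0.89 and 0.81. Of the 6 centromere and kinetochore genes only Cenpf was called, and Hjurp, the most abundant of them, had 1348 and 1934 counts in control and 1671 and 1754 in knockout libraries, a difference of 0.08 ± 0.19 (adjusted p = 0.781).

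Of 6 kinesins 5 were called, and Kif2c, a microtubule depolymerase, had the second largest change of all members, from 6.20 and 9.22 to 68.2 and 68.8 counts. Of 9 spindle microtubule proteins 5 were called, among them Hmmr, from 13.4 and 17.4 to 101 and 130, and Tpx2, which loads Aurora A on the spindle. All 4 cytokinesis genes were called: Anln, Racgap1, Prc1 and Ect2, with rises of 2.20, 1.51, 1.27 and 1.20. In chromosome structure Top2a, the topoisomerase that untangles sister chromatids, had 182 and 178 counts against 689 and 830, the smallest adjusted p of the 55 (2.06 ± 0.16, adjusted p = 0.00562). Mki67, the gene of the Ki-67 antigen, had 256 and 372 against 818 and 800 (1.39 ± 0.21, adjusted p = 0.0172). The condensin genes Smc4, Smc2 and Ncapd2 differed by 0.87, 0.57 and 0.41 and were not called.

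The distal colon gave a like picture with more spread. In GS4T 26 of 55 members were called, all higher, against 7.88% of all genes called higher, and both knockout libraries lay above both controls for 48 members, against 34.4% of all genes. Hmmr had 8.80 and 35.8 counts in control and 238 and 117 in knockout libraries, a rise of 3.15 ± 0.72 (limma, adjusted p = 0.0294). Cdk1 had 46.9 and 62.9 against 413 and 260 (2.57 ± 0.33, adjusted p = 0.00558), and Ccnb1 49.9 and 72.6 against 389 and 202 (2.20 ± 0.39, adjusted p = 0.0148). GS4T replicate 1 exceeded replicate 2 in all 55 members. Dlgap5 and Kif4, both of the spindle, rose by 2.96 and 2.61, and Aurkb by 2.55.

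All 3 passenger complex genes, 3 of 3 anaphase-promoting complex partners, 6 of 11 cyclins and regulators, 3 of 4 cytokinesis genes and 2 of 3 mitotic kinases were called distally, but 1 of 6 kinesins and 0 of 6 centromere and kinetochore genes. For those 6 the changes ran from Ndc80, with 6.85 and 29.0 counts against 120 and 48.1, to Hjurp, with 1129 and 1721 against 1814 and 1631. Top2a had 140 and 380 against 1513 and 679 (2.13 ± 0.55, adjusted p = 0.0424). Mki67, with 275 and 533 against 1500 and 744, missed the threshold (1.46 ± 0.42, adjusted p = 0.0561). Cdc25b was lower again, 448 and 473 against 259 and 220 (-0.95 ± 0.17, adjusted p = 0.0147), below the 2-fold part of the rule.

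The calls in proximal GS4T rest on both GS4T libraries, while 31 members were called without control replicate 1 (6.15% of all genes higher) and 35 without control replicate 2 (9.33%). Without either GS4T library of the proximal colon 0 members were called by limma, although the median rise was then 2.19 without replicate 1, where 0% of all genes were called higher, and 1.76 without replicate 2, where 0.588% were. Distally 2 members were called higher without control replicate 1 (3.88% of all genes), 13 without control replicate 2 (4.84%), 3 without GS4T replicate 1 (5.41%), where 1 was called lower, and 23 without GS4T replicate 2 (5.26%). Without either the first control or the first GS4T library the distal share of members was thus near that of all genes.

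In Alk3 knockout stromal cells most members were higher too, but none passed the threshold. In the proximal colon 53 of 55 members were higher in GA3T, with a median of 1.59 on the log2 scale (range -0.59 to 2.99), and limma called 0 members, against 0.345% of all genes called higher. With limma's unadjusted p under 0.05 and a 2-fold change 38 members passed, against 6.07% of all genes. edgeR called 0 members (0% of all genes higher) and DESeq2 31 (4.41%). With the replicate number as a block limma called 5 (1.36% of all genes higher), and in this segment replicate 1 was low and replicate 2 high in Xist in both groups, so that the Xist class gave the same block. Both knockout libraries exceeded both controls for 52 members, against 28.8% of all genes. Cdk1 had 19.6 and 28.0 counts in control and 171 and 217 in GA3T libraries (2.99 ± 0.36, adjusted p = 0.0648), and Top2a 191 and 187 against 599 and 781 (1.85 ± 0.19, adjusted p = 0.051). Cdca3, Kif2c, Cenpf and Hmmr followed Cdk1 in size, with differences of 2.94, 2.84, 2.82 and 2.63. Hjurp, with 1419 and 2033 against 895 and 1427, and Cdc25b, with 363 and 440 against 328 and 322, were the 2 members below control.

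In the distal colon 54 members were higher in GA3T, with a median of 1.61 (range -0.50 to 2.91). limma and edgeR called 0 members, and 0% of all genes in either tool. By unadjusted p and fold 42 members passed, against 5.54% of all genes, and DESeq2 called 36, against 3.97%. With the replicate number as a block limma called 2 members (0.311% of all genes higher), and with the Xist class as a block 5 (1.95%). The knockout libraries lay above the controls for 52 members, against 27.5% of all genes. Hmmr had 10.0 and 40.8 counts in control and 132 and 196 in GA3T libraries (2.91 ± 0.70, adjusted p = 0.151), Aurkb 20.1 and 44.1 against 137 and 263, and Cdk1 53.5 and 71.6 against 238 and 370 (2.24 ± 0.32, adjusted p = 0.0947). Mki67 had 313 and 607 against 1080 and 1559. For each of these genes the groups were apart. Cdc25b was the exception here too, at 511 and 539 against 415 and 331.

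**Figure D2:**
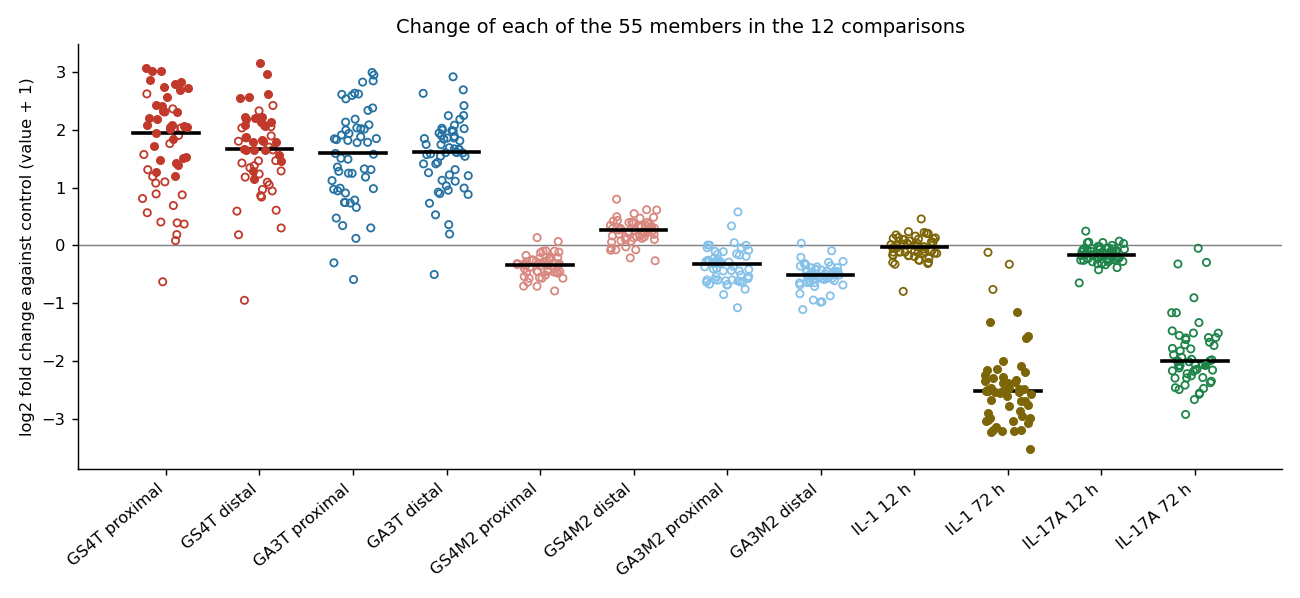
Change of each of the 55 members against the control of its table, on the log2(value + 1) scale, in the 12 comparisons. Each point is a gene, filled where it was called by limma, and the bar is the median. Medians are 1.94 and 1.66 in GS4T, 1.59 and 1.61 in GA3T, within 0.52 of 0 in goblet cells and at 12 h, and -2.51 and -2.001 at 72 h of IL-1 and IL-17A.

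Whether the change differed between the segments was tested as an interaction. For Smad4 the median difference between proximal and distal changes was 0.11, and limma called 0 members (0.186% of all genes), with 0 members at an unadjusted p under 0.05 (10% of all genes) and 0 in edgeR (0.00643% of all genes) and DESeq2 (2.18%). For Alk3 the median difference was 0.03, with 0 called by limma (0% of all genes), 1 at an unadjusted p under 0.05 (6.84%), and 0 in edgeR (0%) and DESeq2 (0.727%). No difference between segments was detectable in 2 libraries per group.

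Epithelial RNA was also higher in the knockout stromal libraries. The summed level of the 12 epithelial genes, none of them at 0 and led by Krt8 or Lgals4, was 27.1 and 734 CPM in proximal control, 1820 and 2301 in GS4T and 743 and 1148 in GA3T libraries. Distally it was 84.8 and 253 CPM in control, 1024 and 2037 in GS4T and 1509 and 623 in GA3T libraries. All 12 epithelial genes were called higher in distal GS4T and 1, Krt18, in proximal GS4T. All 12 were nonetheless higher in each of the 4 comparisons, with medians of 4.16 and 3.35 in proximal and distal GS4T and 3.01 and 2.77 in GA3T on the log2 scale, each above the median of the mitotic genes. Dividing epithelium could carry mitotic RNA, so both were set against the level in control goblet cells of the same segment. In proximal control replicates 1 and 2 the median member stood at 7.37% and 8.13% of that level, and the median epithelial gene at 0.142% and 4.45%. In proximal GS4T libraries the figures were 24.0% and 28.2% for members and 11.7% and 14.1% for epithelial genes, and in distal GS4T libraries 35.4% and 17.6% against 6.46% and 12.2%. In GA3T they were 20.5% and 26.6% against 4.27% and 7.27% proximally, and 23.8% and 28.0% against 8.69% and 3.73% distally. The median goblet gene stood lower than the median epithelial gene, at 0.988% and 2.17% in proximal and 0.758% and 1.30% in distal GS4T libraries. It stood at 0.452% and 0.909% in proximal and 1.34% and 0.545% in distal GA3T libraries, which limits goblet cells as a scale for this epithelial RNA.

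In each of the 12 stromal libraries the median member thus lay further up its goblet cell scale than the median epithelial gene. Single epithelial genes reached further: the highest stood at 381% and 328% of the goblet cell level in proximal GS4T and at 185% and 316% in distal GS4T libraries. The members above the epithelial median numbered 39 of 55 in proximal control replicate 2, 48 in distal GS4T replicate 2 and 54 or 55 in the other 10 libraries. Within distal GS4T and within distal GA3T the library with the higher epithelial sum had the lower mitotic sum, while within each proximal group and within the distal controls the order was the same for both. Proximal control replicate 2, with 734 CPM of epithelial RNA, had 382 CPM of mitotic RNA, and proximal GA3T replicate 1, with 743 CPM, had 560 CPM. Goblet cells are not the most proliferative epithelium, and how much epithelial RNA contributed to the mitotic level was not tested beyond these values.

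**Figure D3:**
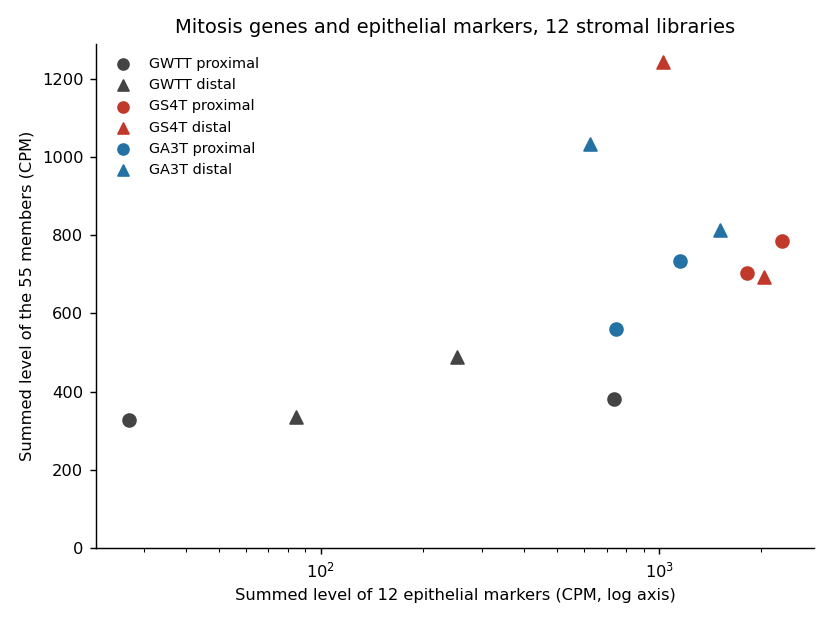
Summed level of the 55 members (vertical axis, CPM) against the summed level of 12 epithelial genes (horizontal log axis, CPM) in the 12 stromal libraries, 1 point per library. Distal GS4T replicate 1 has the highest mitotic sum, 1242 CPM, at 1024 CPM of epithelial RNA, and proximal control replicate 2 has 382 CPM at 734 CPM.

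Other cell types moved as well. The sum of 9 macrophage genes, led by Lyz2, was 190 and 305 CPM in proximal control, 1589 and 890 in GS4T and 801 and 1454 in GA3T libraries, and 721 and 630, 2049 and 1130, and 1070 and 716 CPM distally. The neutrophil sum, over the 7 of 8 genes that the tables list, or 6 in distal GA3T, was 2.87 to 7.54 CPM in the 4 control libraries, 67.1 to 226 in GS4T and 13.8 to 48.9 in GA3T, with Ly6g at 0 in both proximal controls and Cxcr2 at 0 in 3 of the 4 controls. Ptprc, the general leukocyte gene CD45, ran from 44.0 to 64.3 CPM in control, 38.0 to 60.5 in GS4T and 41.5 to 74.2 in GA3T, so that these ranges overlapped. The B and plasma cell sum was lower in all GS4T and GA3T libraries than in the controls of their segment, with Jchain called lower in both GS4T comparisons and Cd79a, Cd79b and Mzb1 in the distal one. Sdc1, which is on the same list but is also known from epithelium, ran against it and was called higher in both, by 3.16 proximally and 2.55 distally. Fibroblast genes themselves were uneven in GS4T. Of 10, 5 were higher proximally (median -0.05), where Cd34 and Lum were the 2 called and fell by 2.32 and 1.78, and 6 were higher distally (median 0.17), where Cd34, Lum and Dcn fell by 2.41, 2.04 and 1.06. All 5 smooth muscle genes were higher proximally, where the actin genes Actg2 and Acta2 rose by 2.76 and 1.93, and distally Actg2 rose by 1.95 and the myosin gene Myh11 fell by 1.25. All 4 endothelial genes were higher in proximal GS4T (median 1.66), where Cdh5 and Vwf rose by 2.46 and 2.07, and their sum was 25.3 and 22.6 CPM in control and 56.4 and 97.9 CPM in knockout libraries. Distally that sum overlapped, at 51.3 and 46.6 against 35.8 and 175 CPM. Of 5 T cell genes Cd8a fell proximally by 2.60, and the sum of the 5 was 21.9 and 22.1 CPM in control and 15.6 and 23.3 CPM in knockout libraries. The part of these cells in the mitotic level was not tested.

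Genes of the preceding cell cycle phase were set beside the mitotic ones. Of 26 genes of the G1/S transition and DNA replication, 1 was called higher in proximal GS4T (Uhrf1, 74.4 and 67.6 against 199 and 221 counts) and 4 in distal GS4T (Uhrf1, Rrm2, Chaf1b and E2f1). Their median change was 0.26 proximally and 0.86 distally, where the 55 mitotic genes had 1.94 and 1.66, and in GA3T 0 of 26 were called, with medians of 0.09 and 0.64 against 1.59 and 1.61. The ratio of the mitotic to the G1/S sum was 0.806 to 1.26 in the 4 control libraries and 1.63 to 2.17 in the 8 knockout libraries. It did not overlap between them. In goblet cells it was 2.16 to 2.82 in GWTM2, 2.14 to 2.66 in GS4M2 and 1.94 to 2.06 in GA3M2 libraries. In untreated organoids it was 2.46 to 2.82. At 72 h it was 2.63 to 3.97 with IL-1 and 3.23 to 4.10 with IL-17A, so a higher ratio also went with a lower mitotic sum.

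Of 10 transcription regulators of mitotic genes, Foxm1 rose in both segments of GS4T, from 71.3 and 95.3 to 254 and 192 counts proximally (1.41 ± 0.28, limma, adjusted p = 0.0343) and from 85.1 and 104 to 426 and 269 distally (1.84 ± 0.29, adjusted p = 0.0103). Mybl2, which encodes B-Myb, was called distally alone (1.55 ± 0.36, adjusted p = 0.0316), with 0.80 ± 0.32 and an adjusted p of 0.154 proximally. The difference between segments was not tested for it. Of 3 inhibitors of mitotic entry Wee1, which phosphorylates Cdk1, fell proximally from 1192 and 678 to 228 and 374 counts (-1.62 ± 0.36, adjusted p = 0.0426). Of 7 CDK inhibitor genes Cdkn2b was called higher distally, by 2.25, and of 13 subunits of the anaphase-promoting complex and of 6 G1 cyclins and kinases 0 were called in either segment.

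**Figure D4:**
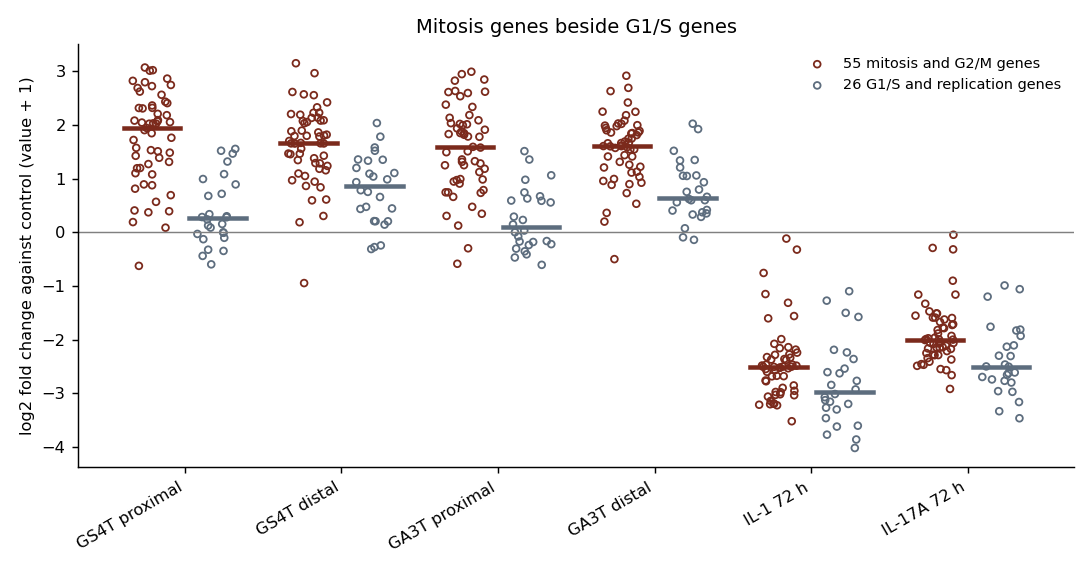
Change against control on the log2(value + 1) scale of the 55 mitosis and G2/M genes and of 26 G1/S and replication genes, in stromal knockouts and in organoids at 72 h. Each point is a gene and each bar a median. Stromal medians are 1.59 to 1.94 for mitotic and 0.09 to 0.86 for G1/S genes, while at 72 h of IL-1 they are -2.51 and -2.97.

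In goblet cells above the knockout stroma the differences were small. With Smad4 deleted in the stroma, 53 of 55 members were lower in proximal GS4M2 than in GWTM2 goblet cells, with a median of -0.33 on the log2 scale. limma called 0 members (0.151% of all genes lower), edgeR 0 (0.189%) and DESeq2 0 (1.1%), while 26 members were lower at an unadjusted p under 0.05 (8.82% of all genes). Both knockout libraries were below both controls for 43 members, against 25.2% of all genes. Nusap1, a spindle protein, had 459 and 486 counts in control and 307 and 274 in GS4M2 (-0.70 ± 0.14, limma, adjusted p = 0.107), Ube2c 972 and 924 against 707 and 625, and Mki67 4507 and 3862 against 3814 and 3370. Plk1, at 5721 and 6104 against 6418 and 5985, overlapped. The names of these groups are those of the deposited columns, whose control columns hold the same counts as the GWTM2 columns of the Alk3 comparison. The study's own listing names them the other way round, and with those names the signs would reverse.

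In the distal colon 48 members were higher in GS4M2, with a median of 0.26. limma called 0 members (0% of all genes higher), as did edgeR (0%) and DESeq2 (0.451%), and 8 were higher at an unadjusted p under 0.05 (5.11%). Groups were apart and higher for 24 members, against 23.1% of all genes. Cks1b had 279 and 188 counts in control and 439 and 363 in GS4M2 (0.80 ± 0.25, adjusted p = 0.436), Birc5 815 and 581 against 1225 and 909, and Mki67 6813 and 6327 against 9283 and 7508. Top2a, with 5731 and 3882 against 5425 and 4547, overlapped. In the interaction of segment and genotype 54 of 55 members had the lower change proximally, with a median difference of -0.60, and 29 at an unadjusted p under 0.05 (8.65% of all genes), but limma, edgeR and DESeq2 each called 0 (0%, 0% and 0.421% of all genes). This difference rests on the deposited column names. With the names of the study's own listing the proximal median of -0.33 would turn positive, as the distal one is, and the interaction was not fitted that way.

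With Alk3 deleted in the stroma, members were mostly lower in goblet cells of both segments. Proximally 49 of 55 were lower in GA3M2 (median -0.31), with 0 called by limma (0.0525% of all genes lower), 0 by edgeR (0.0599%) and 0 by DESeq2 (1.45%), 13 at an unadjusted p under 0.05 (7.91%), and 38 with groups apart (26.1%). Mki67 had 4799 and 4083 counts in control and 3039 and 1453 in GA3M2 (-1.07 ± 0.35, limma, adjusted p = 0.263), and Cenpf 839 and 842 against 552 and 395. Cks1b was on the other side, at 207 and 194 against 241 and 374. Distally 54 of 55 were lower (median -0.52), with 0 called by limma (0%), 0 by edgeR (0%) and 1, Hmmr, by DESeq2 (0.703%), 33 at an unadjusted p under 0.05 (5.46%) and 48 with groups apart (22.2%). Hmmr had 808 and 757 counts against 454 and 289 (-1.11 ± 0.25, adjusted p = 0.318), and Mki67 6517 and 6107 against 3947 and 4153 (-0.64 ± 0.13, adjusted p = 0.306). The interaction of segment and genotype gave a median difference of 0.16 and 0 calls in limma (0% of all genes), edgeR (0%) and DESeq2 (0.0224%), with 0 members at an unadjusted p under 0.05 (1.45%).

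Other genes moved in these goblet cells too. Muc2, the mucin whose reporter defines the sort, had 179572 and 224217 counts in control and 18753 and 14042 in proximal GA3M2 libraries (-3.63 ± 0.34, limma, adjusted p = 0.0464), and 41156 and 109532 against 16015 and 12294 distally (-2.26 ± 0.47, adjusted p = 0.306). The sum of 8 goblet genes was 30916 and 34305 CPM in control and 13565 and 10023 CPM in GA3M2 libraries proximally, and 35915 and 63144 against 24444 and 15259 CPM distally. Muc2 led this list in the proximal controls, Fcgbp in the distal controls and Zg16 in all 4 GA3M2 libraries. In proximal GS4M2 6 of 8 goblet genes (median -0.38) and 4 of 6 colonocyte genes (median -1.05) were lower. All 6 crypt base genes tested were higher there (median 0.30). In distal GS4M2 5 of 8 goblet genes (median -0.16) and 3 of 6 colonocyte genes (median -0.25) were lower, and 5 of 6 crypt base genes higher (median 0.43). limma called 0 of them, and the proximal signs depend on the column names.

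Macrophage and neutrophil genes were scarce but higher in GA3M2. The macrophage gene Lyz2 was at 0 in both proximal controls and at 305 and 495 counts in GA3M2, the single macrophage gene called, and the macrophage sum was 28.5 and 41.1 CPM proximally and 30.9 and 38.0 CPM distally against 4.19 to 6.57 CPM in control libraries. The neutrophil sum, led by Ly6g, was 19.8 and 82.1 CPM proximally and 73.0 and 125 CPM distally against 0.378 to 7.99 CPM. Of 6 fibroblast genes tested proximally 5 were higher (median 3.998) and of 3 smooth muscle genes all (median 3.75), with 0 called by limma, while their sums stayed at most 33.2 and 16.02 CPM. Distally these lists did not share a direction: of 2 fibroblast genes tested 1 was higher and 1 lower, the single smooth muscle gene tested, Tagln, was lower by 0.93 on the log2 scale, and both endothelial genes tested were lower (median -0.66), with 0 called by limma. In GS4M2 the neutrophil sum, again led by Ly6g, was 5.94 to 33.5 CPM and the macrophage sum 4.79 to 6.64 CPM. The tables list 1 to 7 genes of each of these lists, so the sums cover different genes. The part of such cells, and of the change in goblet genes, in the mitotic level was not tested.

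In organoids no mitotic gene was called after 12 h of either cytokine. With IL-1 24 members were higher and 31 lower than in untreated organoids, with a median of -0.02. limma called 0 (0% of all genes lower), as did edgeR (0%) and DESeq2 (0.0232%), 2 members, Psrc1 and Aurkb, were lower at an unadjusted p under 0.05 (1.37%), and 7 had groups apart and lower (4.22%). Psrc1, a spindle protein, had 248, 249 and 226 counts in untreated and 193, 107 and 130 in IL-1 organoids (-0.79 ± 0.23, adjusted p = 0.886). Mki67 had 9068, 9585 and 12409 against 8129, 12224 and 12370, and these overlapped. With IL-17A 48 members were lower, with a median of -0.16. limma called 0 (0%), edgeR 0 (0%) and DESeq2 0 (0.0154%), 7 were lower at an unadjusted p under 0.05 (1.71%), and 10 had groups apart (5.01%). Psrc1 had 261, 261 and 237 against 198, 150 and 141, again the largest difference (-0.65 ± 0.18, adjusted p = 0.774).

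Untreated and treated 12 h libraries of replicate 1 were low in Xist, and those of replicate 4 high, and same-numbered libraries deviated together, with correlations of 0.619 to 0.637 across genes. The labels tie them by number alone. Set against the untreated library of its own number, 35 members were lower in both IL-1 libraries (29.5% of all genes) and 48 in both IL-17A libraries (31.3%). With those 2 numbers as a block the medians were -0.09 for IL-1 and -0.22 for IL-17A, and among libraries low in Xist -0.20 and -0.33, with 0 members called by limma in each of these fits.

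After 72 h of IL-1 all 55 members were lower than in untreated organoids and 52 were called, against 12.2% of all genes called lower. Untreated and treated libraries were apart for 53 members, against 27.8% of all genes. Ttk, the checkpoint kinase Mps1, had 515, 631 and 723 counts untreated and 102, 85.7 and 16.5 with IL-1, and fell most, by 3.52 ± 0.62 on the log2 scale (limma, adjusted p = 0.0057). Mki67 had 9086, 11690 and 11905 against 2085, 2413 and 516 (-2.98 ± 0.53, adjusted p = 0.00575). Replicate 3 of the treated libraries was the lowest in both.

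The loss ran through every role. Of the cyclins and regulators all 11 were called: Cdk1 had 1219, 1665 and 1894 counts untreated and 602, 447 and 159 with IL-1 (-2.16 ± 0.46, adjusted p = 0.00995), and Ccnb1 1693, 1997 and 2052 against 569, 426 and 57.0 (-2.98 ± 0.76, adjusted p = 0.0181). All 3 mitotic kinases, 3 anaphase-promoting complex partners, 4 checkpoint genes, 3 passenger complex genes, 6 genes of chromosome structure and 4 of cytokinesis were called lower. Birc5 fell by 2.53, Aurkb by 2.37, Ube2c by 2.52 and Top2a by 2.78, while Plk1 fell less, by 1.31, from 3479, 2387 and 2446 to 1049, 1579 and 796. After Ttk the largest falls were those of the kinetochore genes Ndc80 and Nuf2 and of the kinesins Kif20b and Kif2c, by 3.22, 3.19, 3.21 and 3.20.

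The other 3 members were not called. Hjurp had 3417, 4333 and 4521 counts untreated and 3051, 2996 and 3733 with IL-1 (-0.32 ± 0.16, adjusted p = 0.151), and Psrc1 236, 171 and 217 against 184, 255 and 146 (-0.12 ± 0.27, adjusted p = 0.753). Both overlapped. Kif23, with 2085, 1964 and 1944 against 1380, 1115 and 1067, was apart and had an adjusted p of 0.00731 but changed less than 2-fold (-0.76 ± 0.15). Hjurp was thus outside the calls in stromal cells and in organoids alike.

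The controls limit this comparison. Untreated 72 h replicate 2 was very close to untreated 12 h replicate 4, at a chi-square of 3.45 per degree of freedom, so it was not clear of the 12 h controls. With only untreated replicate 2 as control, the single 72 h control not also deposited at 12 h, limma called 0 members and 1 of all genes, while the median was -2.57, 54 members were lower in all 3 treated libraries than in that control (38.3% of all genes), and 49 passed the unadjusted p with the fold, against 9.93% of all genes. Xist, which marks female cells, was low in IL-1 replicates 1 and 3 and in untreated replicate 1 and high in the others, and with the Xist class as a block limma called 50 members (10.4% of all genes lower). Either class leaves 1 arm with a single library: 1 treated library against the very close untreated replicates 2 and 4 gave 51 calls (10.8%) among those high in Xist, and 2 treated libraries against 1 control gave 2 (0.63%) among those low in it. Against the 12 h comparison the change with IL-1 was lower at 72 h for 54 of 55 members, with a median difference of -2.51, and 47 were called in the interaction, against 9.93% of all genes called lower. The same 2 control libraries enter both sides of that interaction, and the fit counted them as separate libraries at each time. Without any control, IL-1 organoids at 72 h against IL-1 organoids at 12 h had 51 members called lower (10.6% of all genes) and a median of -2.38, a contrast in which treatment time and culture time cannot be told apart.

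After 72 h of IL-17A all 55 members were again lower, with a median of -2.001, but the treated libraries disagreed. Mki67 had 9068, 11624 and 11881 counts untreated and 2781, 7323 and 680 with IL-17A (-2.17 ± 0.77, limma, adjusted p = 0.0898). Replicate 2 stood nearest to the controls and replicate 3 furthest, and the summed member level was 1695, 3907 and 667 CPM against 5313 to 6486 CPM. Only 1 member, Birc5, was called, with 1096, 1174 and 1317 against 328, 545 and 129 (-2.06 ± 0.48, adjusted p = 0.0466), against 2.92% of all genes called lower. By unadjusted p and fold 47 members passed (10.3% of all genes), edgeR called 0 (1.67%) and DESeq2 27 (7.25%), and 51 members had groups apart (23.6%). Without IL-17A replicate 2 limma called 52 members, against 14.7% of all genes called lower in that fit, and without any other single library 0, against at most 0.229%. The largest differences were those of Ttk, Nuf2, Ndc80 and Gtse1, at -2.92, -2.66, -2.57 and -2.55, and the smallest again those of Hjurp, Kif23 and Psrc1, at -0.05, -0.29 and -0.32. Relative to 12 h, 53 members had the lower change at 72 h with a median difference of -1.82, and limma called 0 in the interaction (0.00755% of all genes lower), edgeR 0 (0.00755%) and DESeq2 1 (2.97%), with 32 at an unadjusted p under 0.05 (15%). As with IL-1, 2 of the 3 controls were also deposited at 12 h, and the other, untreated replicate 2, was very close to untreated replicate 4. All 3 IL-17A libraries were low in Xist, and of the controls only replicate 1 was. The replicate number could serve as a block only for replicates 1 and 2, which both groups hold. In that fit, without untreated replicate 4 and IL-17A replicate 3, Birc5 was not called, nor was any other member (0% of all genes lower). With untreated replicate 2 as the only control the median was -2.10, and 54 members were lower in all 3 treated libraries (35.9% of all genes).

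The other cell cycle lists were uneven at 72 h of IL-1. All 26 G1/S and replication genes were called lower, with a median of -2.97, and Foxm1 and Mybl2 fell by 3.07 and 2.96. The CDK inhibitor gene Cdkn1a, which encodes p21, rose from 2919, 2468 and 2359 to 8095, 12055 and 16433 counts (2.19 ± 0.25, limma, adjusted p = 0.00275). Of 6 G1 cyclins and kinases 3 were called, with Cdk4, Cdk2 and Cdk6 lower by 1.78, 1.47 and 1.03 on the log2 scale. Cdkn2a, Cdkn2b and Cdkn1b rose by 2.87, 1.86 and 1.21, and Cdkn2c fell by 2.14. Of 13 subunits of the anaphase-promoting complex only Anapc5 and Cdc23 were called, both lower, and of 3 inhibitors of mitotic entry only Fbxo5, an inhibitor of that complex, which fell by 2.76. With IL-17A 9 of the 26 G1/S genes were called lower, Cdkn1a rose by 1.70 and Mybl2 fell by 2.11.

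Markers of crypt position changed in the same IL-1 libraries. Of 7 crypt base genes 6 were called lower with IL-1 at 72 h. Lgr5, the stem cell receptor, had 2606, 1237 and 1255 counts untreated and 142, 108 and 27.4 with IL-1 (-4.39 ± 0.60, adjusted p = 0.00321). Of 6 colonocyte genes 4 were called higher, led by the water channel gene Aqp8, from 3925, 2415 and 2388 to 40946, 30701 and 92693 counts (4.11 ± 0.40, adjusted p = 0.00231). Replicate 3 had the fewest mitotic reads, the least Lgr5 and the most Aqp8. Of 8 goblet genes 0 were called by limma, with a median of -0.35. With IL-17A at 72 h all 5 crypt base genes tested were lower (median -1.79) with 0 called, and of 6 colonocyte genes 5 were higher (median 1.73) with 1 called, Ceacam20, which rose by 2.80 on the log2 scale. How far fewer crypt base cells or fewer dividing cells of any kind account for the mitotic level was not tested.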

How the data were processed

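RNA was sequenced from sorted stromal and goblet cells and from organoids, with a SMARTER mRNA-Seq kit. The deposited values are a gene signal, read counts that the authors divided by DESeq2 size factors in each of 12 tables (STAR 2.5.3, DESeq2 1.28.1 and mm10, per the submitters' processing notes). The counting program, its annotation and its use of strand are not given in the sources used here. Whole reads were recovered from the deposited values, with 100% of values within 0.1 of a whole number of reads. The 4 rows with no gene name in each of the GS4M2 tables, which held 20.9% to 28.2% of a library's summed values, stayed out, and 0 per-sample columns were left unused.

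In each table, genes whose values averaged 10 or more were tested with limma 3.58.1 (trend) on log2(value + 1) in R 4.3.3, since the values are normalized, with Benjamini-Hochberg adjustment over all of them. A call needed an adjusted p under 0.05 and a log2 change of at least 1. limma was tested on simulated data, an outcome of which is not given here and is not used for any result. Alternatives were edgeR 4.0.16 and DESeq2 1.42.0 on the recovered reads, pseudocounts of 10 and 0.1, no filter, a replicate block and leaving out each library. Segment and time interactions were fitted with limma over the values of both tables, each with its own controls, and the contrast of treated libraries at 72 h and 12 h on recovered reads scaled together. Any member could be named, and the rule was to name the 5 members with the largest rise and fall per comparison, 8 members throughout (Mki67, Cdk1, Ccnb1, Top2a, Plk1, Aurkb, Ube2c and Birc5), up to 6 called genes of each other list, and the deleted genes. Lengths and positions are from GENCODE M21 (GRCm38). The members and lists were chosen with earlier results of these data known. The precision of each value is limited by 2 or 3 libraries per group.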

Additional observations from a re-analysis of the deposited data

Results flagged for a closer look

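The change with IL-1 differed between 72 h and 12 h for 47 of the 55 mitosis and G2/M genes, all lower at 72 h, in limma's test of the interaction, against 9.93% of all genes called lower. In that test 2 control libraries enter both times and were counted as separate libraries. In goblet cells with Smad4 deleted in the stroma the median member was lower in the proximal colon (-0.33) and higher in the distal colon (0.26). In the test of that difference 29 members had an unadjusted p under 0.05, against 8.65% of all genes, and 0 were called. The sign of the proximal value, and with it this difference and its count, depends on the naming of the deposited columns, which the study's own listing gives the other way round. With that listing's names the proximal median would turn positive, as the distal one is, and the test was not run that way. As named, both proximal GWTM2 columns hold the counts of the GWTM2 columns in the GA3M2 table. Xist was high in GWTM2 replicate 1 and low in GWTM2 replicate 2 and in both GS4M2 libraries, in either segment.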

How the results depend on the processing

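The median of IL-1 at 12 h, -0.02, turned to 0.11 without control replicate 4 or without IL-1 replicate 1, the only median to change sign. Under the alternatives run 49 counts of calls and 7 medians were marked as moved from their main value. The other 177 counts and 151 medians were marked as near it, by a tolerance that is not given here. With a pseudocount of 10 the medians were 1.60 in proximal GS4T and 1.35 in proximal GA3T, where 2 members were called (0.541% of all genes higher), and without the filter 1 was called there (0.382%). With an unadjusted p in place of the adjusted one, calls were 41 in distal GS4T (10.5% of all genes in that direction), 38 and 42 in proximal and distal GA3T (6.07% and 5.54%), 1 in each GA3M2 segment (3.66% and 1.73%), 47 in IL-17A at 72 h (10.3%), 1 in the GA3T and in the GS4M2 segment interactions (0.954% and 0.995%) and 31 in the IL-17A time interaction (8.45%). DESeq2 called 31 and 36 in GA3T (4.41% and 3.97%), 1 in distal GA3M2 (0.703%), 27 in IL-17A at 72 h (7.25%) and 1 in its time interaction (2.97%), and edgeR 0 in IL-17A at 72 h (1.67%), where limma called 2 with no fold threshold (4.18%). Leaving out 1 library gave 0 to 35 calls (medians 1.76 to 2.19) in proximal GS4T, 2 to 23 (1.09 to 2.18) in distal GS4T, 0 to 1 and 0 to 3 in GA3T, 0 to 4 (-0.45 to -0.29) and 0 to 2 in GA3M2, 44 to 52 in IL-1 and 0 to 52 in IL-17A at 72 h. Where these calls were most numerous, the share of all genes called in that direction was 0.782% (without GA3T replicate 1) and 1.84% (without GA3T replicate 1) in proximal and distal GA3T, 4.88% (without GA3M2 replicate 1) in proximal GA3M2, 2% and 0.917% (without GWTM2 replicate 1 or 2) in distal GA3M2 and 14.7% (without IL-17A replicate 2) in IL-17A at 72 h. In the IL-1 fits at 72 h 8.29% to 14.3% of all genes were called lower. A lone library was assumed to vary like the others.

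By the labels libraries of 2 groups share only a number. Their deviations correlated at -0.19 to 0.64, highest at 12 h. With the replicate block 31 and 26 members were called in GS4T (6.13% and 8.77% of all genes in that direction), 5 and 2 in GA3T (1.36% and 0.311%) and 1 in proximal GA3M2 (2.48%). At 72 h the block took only replicates 1 and 2, the numbers that both groups hold. There 51 members were called in IL-1 (5.81%) and 0 in IL-17A (0%).

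These alternatives were chosen after seeing the data. With the Xist class as a block 5 members were called in each GA3T segment (1.36% and 1.95% of all genes in that direction), 2 in distal GA3M2 (2.1%), 50 in IL-1 (10.4%) and 0 in IL-17A at 72 h (0%). Within 1 class, where 1 arm was a single library in each of these comparisons, 3 were called in distal GA3T (1.84%) and 51 in IL-1 at 72 h (10.8%) among libraries high in Xist, and among those low in it 2 in distal GA3M2 (2%), 2 in IL-1 (0.63%) and 0 in IL-17A (0%) at 72 h. Among the latter the median of IL-1 at 12 h was -0.20. Without the 2 controls also deposited at 12 h 0 were called in IL-1 and in IL-17A at 72 h, and with near-identical libraries averaged 45 in IL-1 (8.51%) and 0 in IL-17A (0%). The cause of these moves was not tested.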
